A study of Homo sapiens with 18 samples.

Results

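The polyamine synthesis genes examined here are ODC1, AMD1, SRM, SMS, OAZ1, OAZ2, AZIN1, SAT1 and PAOX, taken as the rows of the poly(A) RNA count table whose gene symbol is 1 of these names. They are 9 of the 47021 rows of that table. Of the 9, 8 passed the filter on low counts, which left 14732 rows for testing, and PAOX did not. RNA came from DLD1 cells, a cell line established from a human colorectal adenocarcinoma. Cells were infected with lentivirus and selected in 10 µg/ml puromycin, which holds for every group. The sgZ1 and sgZ3 groups carried guide 1 or guide 3 against ZNF692, a zinc-finger gene, and are labelled as ZNF692 knockout, and the sgC group carried a control guide and is labelled as wild type. Each of the 3 groups had 3 poly(A) libraries, 9 of the 18 samples in the series, and the labels do not say whether a line was a clone or a pool. Nor do they state that replicates are separate cultures. The p-values below therefore describe how these particular libraries vary, and that variation may be technical. The comparison made is between cells labelled ZNF692 knockout and control cells.

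Polyamines (putrescine, spermidine and spermine) are small positively charged molecules that bind RNA and DNA and are needed for growth. Ornithine decarboxylase makes putrescine, and spermidine synthase and spermine synthase then add aminopropyl groups that come from decarboxylated S-adenosylmethionine. Antizymes, whose own translation needs polyamines, bind ornithine decarboxylase and send it to the proteasome, antizyme inhibitor holds antizymes back, and acetylation followed by oxidation reverses the pathway. ODC1 is a textbook target of MYC in proliferating cells, colorectal tumours included.

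Total counts ran from 16044224 to 24535642 per library. Levels are given as CPM, counts relative to the TMM-scaled library total, TMM being a scaling under which the bulk of genes is level between libraries. ZNF692 itself had 9.64, 9.82 and 11.5 CPM in sgZ1 libraries and 7.92, 8.08 and 6.29 CPM in sgZ3 libraries, against 7.01, 6.32 and 6.18 CPM in sgC libraries. Its mRNA was therefore not lower in the libraries labelled knockout, and because a small insertion or deletion need not lower an mRNA, this level does not check the labels. All 9 epithelial markers (EPCAM and keratin genes among them) were at 1 CPM or more in every library, and their summed level was 8560 to 9412 CPM in sgZ1, 10583 to 11543 CPM in sgZ3 and 8748 to 9780 CPM in sgC. The 10 mesenchymal markers, by contrast, summed to 114 CPM in sgZ1 replicate 2 and 117 CPM in sgZ3 replicate 3, against 9.47 to 13.7 CPM in the other 7 libraries, with COL1A2, DCN and LUM at or near 0 throughout. Leukocyte markers summed to 4.12 to 5.84 CPM and endothelial markers to 1.60 to 3.67 CPM over all libraries. Within sgZ1, replicate 2 had the highest ODC1, AMD1, SMS, OAZ1, AZIN1 and SAT1. Within sgZ3, replicate 3 had the highest AMD1 and the lowest ODC1, SRM, OAZ1, OAZ2 and SAT1. Fits without these 2 libraries are given wherever they change a call on a polyamine gene. In such bulk RNA, a different number of cells of a type and a different amount of RNA per cell cannot be told apart.

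Averaged over both guides, genes of the synthesis arm and the antizyme gene OAZ2 were higher than in sgC, and AZIN1 was lower. Over both guides against sgC, 5 of the 8 tested genes were called higher and 1 lower at a false discovery rate under 0.05 (edgeR quasi-likelihood test, Benjamini-Hochberg adjustment over all tested genes). The background is large: 18.6% of all tested genes were called higher and 14.6% lower in that comparison. The median log2 fold change was 0.45 over the 8 genes and 0.01 over all tested genes. Of all calls, 56% were higher with TMM scaling, 45.9% with upper-quartile scaling and 36.6% with library totals alone. SRM, ODC1, AMD1, SMS and OAZ2 were the genes called higher, and AZIN1 was the gene called lower. Against sgC, sgZ1 gave 4 genes called higher (background 15.5%) and 0 called lower (background 10.3%). For the lower direction, edgeR had 1 of the 8 genes at an unadjusted p under 0.05 and DESeq2 called 0. The sgZ3 libraries gave 5 called higher (background 19.2%) and 1 called lower (background 17.1%). ODC1, SRM and OAZ2 were called higher with each guide, a pattern found in 6.65% of all tested genes.

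**Figure D1:**
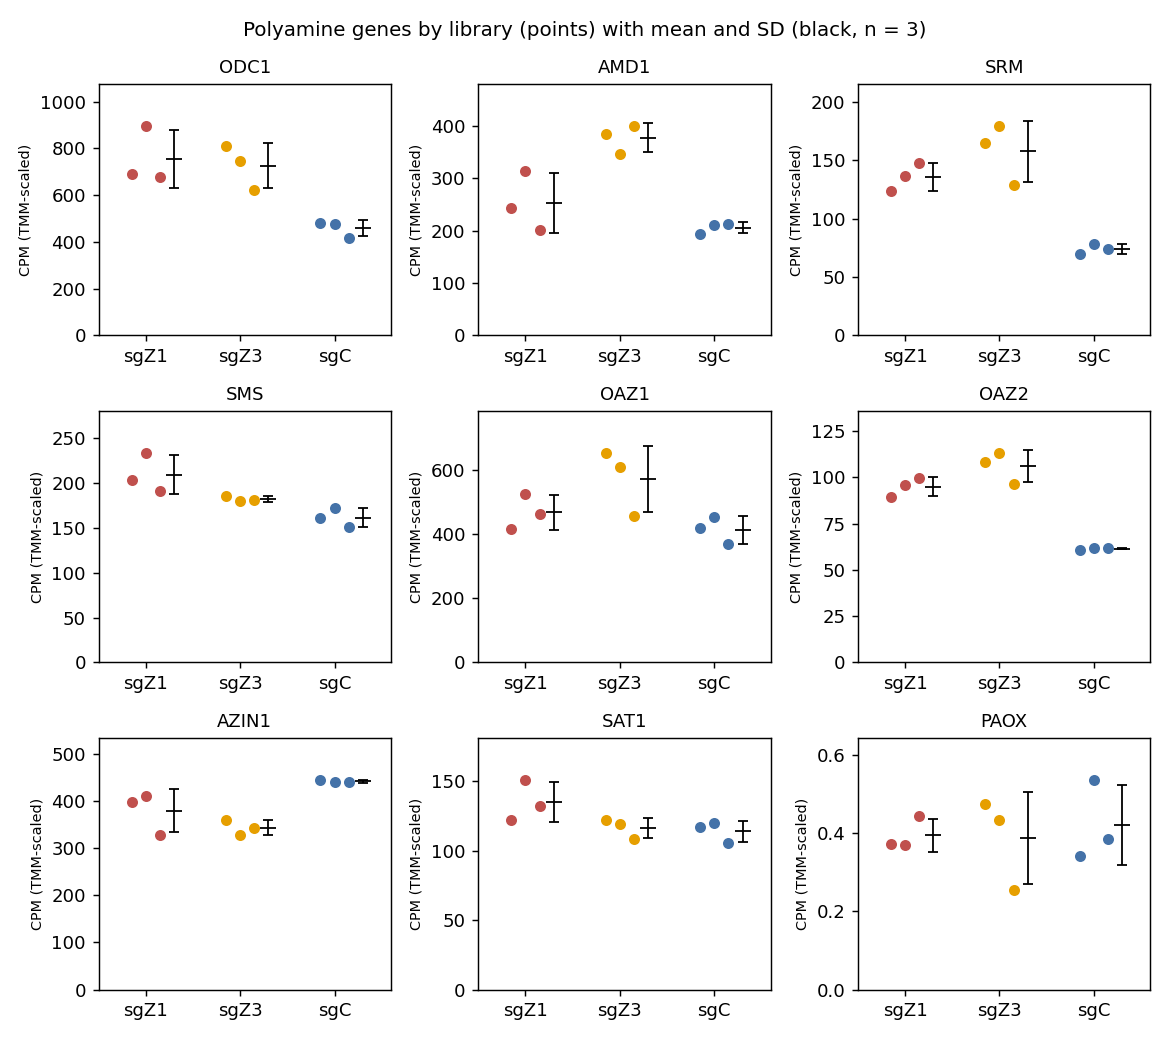
Level of each polyamine gene in CPM (vertical axes, linear) in each of the 9 libraries, with sgZ1 and sgZ3 left of sgC; points are libraries and bars are group means with SD. All 6 ZNF692-guide libraries lie above the 3 sgC libraries for ODC1, SRM, SMS and OAZ2 and below them for AZIN1.

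ODC1 encodes ornithine decarboxylase, the first and most tightly controlled enzyme of the pathway (ENSG00000115758.13, chromosome 2, 10439968 to 10448504, minus strand, GRCh38, protein coding). It had 690, 897 and 676 CPM in sgZ1 libraries and 811, 745 and 620 CPM in sgZ3 libraries, against 482, 475 and 418 CPM in sgC libraries. The lowest ZNF692-guide library was above the highest sgC library, so the groups did not overlap. Over both guides the log2 fold change was 0.69 (SE 0.11, adjusted p = 0.00123), and it was 0.72 with sgZ1 (adjusted p = 0.00161) and 0.66 with sgZ3 (adjusted p = 0.00276). The difference between the guides, sgZ3 minus sgZ1, was -0.06 with a 95% interval of -0.33 to 0.22, so a difference of either sign within that range was not resolved.

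SRM encodes spermidine synthase, which turns putrescine into spermidine (ENSG00000116649.10, chromosome 1, 11054584 to 11060024, minus strand). It had 124, 137 and 147 CPM in sgZ1 libraries and 165, 180 and 129 CPM in sgZ3 libraries, against 70.0, 78.1 and 73.9 CPM in sgC libraries. This was the largest change among the 8 tested genes, with every ZNF692-guide library above every sgC library. The log2 fold change over both guides was 0.98 (SE 0.11, adjusted p = 0.000199). It was 0.88 with sgZ1 (adjusted p = 0.000302) and 1.09 with sgZ3 (adjusted p = 0.000181).

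SMS encodes spermine synthase, which adds the second aminopropyl group (ENSG00000102172.16, chromosome X, 21940573 to 21994835, plus strand). Its levels were 203, 234 and 191 CPM in sgZ1 libraries and 186, 179.6 and 181 CPM in sgZ3 libraries, against 162, 173 and 151 CPM in sgC libraries. The groups again did not overlap, but the gap was small: the log2 fold change over both guides was 0.27 (SE 0.083, adjusted p = 0.0258). With sgZ1 alone SMS rose by 0.37 (adjusted p = 0.0129), and with sgZ3 alone the value was 0.17 (adjusted p = 0.17). The call over both guides was lost without sgZ3 replicate 1 (adjusted p = 0.0534), sgC replicate 1 (adjusted p = 0.103) or sgC replicate 3 (adjusted p = 0.145), and the sgZ1 call without sgC replicate 1 (adjusted p = 0.0587) or sgC replicate 3 (adjusted p = 0.0723).

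AMD1 encodes S-adenosylmethionine decarboxylase, the enzyme that supplies the aminopropyl donor (ENSG00000123505.19, chromosome 6, 110874770 to 110895713, plus strand). It had 385, 347 and 401 CPM in sgZ3 libraries and 244, 315 and 201 CPM in sgZ1 libraries, against 194, 211 and 212 CPM in sgC libraries. All sgZ3 libraries were above all others (17.2% of tested genes had all sgZ3 above all sgZ1 libraries), whereas sgZ1 replicate 3 lay inside the sgC range. AMD1 rose by 0.87 on the log2 scale with sgZ3 (SE 0.14, adjusted p = 0.000991), while the sgZ1 value was 0.30 (SE 0.14, adjusted p = 0.132). It was the 1 polyamine gene of 8 whose levels were called different between the guides (sgZ3 minus sgZ1, 0.58, 95% interval 0.28 to 0.88, adjusted p = 0.00825), in a comparison where 12.8% of all tested genes were called higher and 15.8% lower. The sgZ1 call for AMD1 depended on the libraries: without sgZ1 replicate 3 it passed (adjusted p = 0.0293), and without the 2 libraries bearing mesenchymal markers the sgZ1 value was 0.10 (adjusted p = 0.393). Without those 2 libraries 3 polyamine genes were called higher in sgZ3 than in sgZ1, AMD1 (0.68, adjusted p = 1.82e-06), SRM (0.31, adjusted p = 0.00751) and OAZ1 (0.48, adjusted p = 0.000111), and the same 3 were called without sgZ3 replicate 3 alone. Calls rose over all genes too: in the fit of 7 libraries 3468 of 14923 tested genes were called higher and 4464 lower between the guides. The fits without 1 library called 1035 to 2871 genes higher.

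The sequences around the starts of the genes with the firmest changes are shown because CACGTG, the E-box that MYC and its partner MAX bind, is a textbook feature of ODC1. RefSeq windows (GRCh38.p14, 250 bases before to 50 bases after a transcript start) were examined for 7 of the 9 genes, 10 windows in all. Windows of AZIN1 and PAOX were not examined, so whether either gene carries CACGTG there was not tested. The windows shown are written 5′ to 3′ on the minus strand of the genome, on which all 3 genes lie, with CACGTG in capitals.
ODC1, downstream start: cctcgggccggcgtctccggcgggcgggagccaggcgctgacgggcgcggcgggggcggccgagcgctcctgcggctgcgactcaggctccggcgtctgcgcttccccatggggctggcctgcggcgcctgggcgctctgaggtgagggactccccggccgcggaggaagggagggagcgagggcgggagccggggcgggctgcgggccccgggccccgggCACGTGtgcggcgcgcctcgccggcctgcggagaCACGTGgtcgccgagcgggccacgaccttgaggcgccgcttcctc
ODC1, upstream start: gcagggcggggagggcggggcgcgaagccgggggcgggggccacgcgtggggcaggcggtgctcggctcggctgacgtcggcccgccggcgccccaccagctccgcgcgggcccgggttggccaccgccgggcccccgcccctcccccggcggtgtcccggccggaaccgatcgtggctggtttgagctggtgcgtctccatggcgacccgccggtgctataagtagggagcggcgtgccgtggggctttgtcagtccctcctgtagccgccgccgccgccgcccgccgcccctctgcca
SRM: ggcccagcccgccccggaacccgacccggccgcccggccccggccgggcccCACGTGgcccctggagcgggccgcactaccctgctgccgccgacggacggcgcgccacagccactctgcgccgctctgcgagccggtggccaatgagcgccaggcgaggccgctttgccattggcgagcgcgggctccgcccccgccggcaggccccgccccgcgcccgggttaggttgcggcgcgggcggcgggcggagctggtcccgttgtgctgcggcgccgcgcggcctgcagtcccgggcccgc
OAZ2: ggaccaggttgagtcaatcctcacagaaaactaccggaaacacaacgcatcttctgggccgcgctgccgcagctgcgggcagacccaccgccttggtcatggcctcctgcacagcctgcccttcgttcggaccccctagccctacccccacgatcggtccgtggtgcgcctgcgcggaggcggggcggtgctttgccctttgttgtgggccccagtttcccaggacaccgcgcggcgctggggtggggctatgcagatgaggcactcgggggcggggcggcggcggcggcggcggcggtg
The ODC1 downstream window (chr2:10447963-10448262) held CACGTG at 2 places, whose first bases were 29 bases before the start (-29) and at base 6 after it. The SRM window (chr1:11059969-11060268) held it at 1 place, position -199. The ODC1 upstream window (chr2:10448278-10448577) and the OAZ2 window (chr15:64703232-64703531) held none, and neither did the windows of AMD1, SMS, OAZ1 and SAT1. CACGTG reads the same on both strands, and it occurs in 2548 of 35116 windows of this kind, 7.26% of them, with 2 or more copies in 0.664%. The related letters CACGCG, searched on both strands, occur in 11.4% of windows and gave 2 matches, overlapping each other, in the ODC1 upstream window. These are matches of letters only, and no binding of any factor was measured.

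OAZ2 encodes an antizyme, an inhibitor of ornithine decarboxylase and of polyamine uptake (ENSG00000180304.14, chromosome 15, 64687573 to 64703281, minus strand) had 89.3, 95.9 and 99.4 CPM in sgZ1 libraries and 108, 113 and 96.6 CPM in sgZ3 libraries, against 61.0, 61.7 and 61.6 CPM in sgC libraries. The sgC libraries were nearly level with each other and far below all 6 others. OAZ2 rose by 0.71 on the log2 scale over both guides (SE 0.081, adjusted p = 0.000217), by 0.63 with sgZ1 (adjusted p = 0.000392) and by 0.79 with sgZ3 (adjusted p = 2e-04).

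OAZ1 is the more abundant antizyme gene (ENSG00000104904.12, chromosome 19, 2269509 to 2273490, plus strand). It had 418, 526 and 464 CPM in sgZ1 libraries and 654, 609 and 457 CPM in sgZ3 libraries, against 419, 455 and 369 CPM in sgC libraries. The sgZ1 and sgC ranges overlapped, with sgZ1 replicate 1 level with sgC replicate 1. Over both guides the log2 fold change was 0.32 (SE 0.12) and missed the threshold (adjusted p = 0.0539). OAZ1 rose with sgZ3 (0.47, adjusted p = 0.0192), and the sgZ1 value was 0.18 (adjusted p = 0.362). The sgZ3 call was lost without sgZ3 replicate 1 (adjusted p = 0.0867), sgZ3 replicate 2 (0.0754), sgC replicate 1 (0.0634) or sgC replicate 3 (0.0897), whereas over both guides OAZ1 passed without the 2 libraries bearing mesenchymal markers (0.32, adjusted p = 0.000697), without sgZ1 replicate 1 (adjusted p = 0.0455) or without sgZ3 replicate 3 (adjusted p = 0.00519). OAZ1 counts are also uncertain because 220 of its exon bases are shared with LLfos-48D6.2, a gene on the same strand with 3512 to 5901 counts per library, which had a log2 fold change of 0.39 over both guides (adjusted p = 0.0234).

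Both antizyme messages carry the site where the ribosome must slip forward by a base to read past a stop codon, the step through which polyamines control antizyme synthesis. The sites are shown because they link the translation of both messages, not the message levels counted here, to polyamines, which were not measured. Capitals mark the last codon before the shift and the stop codon TGA.
OAZ1: cctcggtggtgcTCCTGAtgcccctcaccc
OAZ2: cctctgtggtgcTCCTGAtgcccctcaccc
The windows of 30 bases come from GENCODE 29 transcripts of the 2 genes and differ at 1 base, outside the capitals. The counts do not measure frameshifting, so protein levels of either antizyme are not known from these data.

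AZIN1 encodes antizyme inhibitor, a relative of ornithine decarboxylase that binds antizyme without making putrescine (ENSG00000155096.15, chromosome 8, 102826357 to 102893864, minus strand). It had 399, 412 and 328 CPM in sgZ1 libraries and 359.8, 328 and 342 CPM in sgZ3 libraries, against 445, 439.5 and 440.4 CPM in sgC libraries. It was the only tested polyamine gene with all 6 ZNF692-guide libraries below all sgC libraries, a pattern shown by 11.5% of tested genes, while 11.9% showed the opposite one, as ODC1, SRM, SMS and OAZ2 did. The log2 fold change over both guides was -0.29 (SE 0.081, adjusted p = 0.0176). Its antisense partner MAILR, which shares 344 exon bases with it, had 11 to 35 counts per library. AZIN1 fell by 0.36 on the log2 scale with sgZ3 (adjusted p = 0.0116), and its value with sgZ1 was -0.22 (adjusted p = 0.109). Leaving out sgC replicate 1, 2 or 3 ended the call over both guides (adjusted p = 0.0789, 0.0541 and 0.0663), leaving out sgZ3 replicate 2 ended the sgZ3 call (adjusted p = 0.0598), and without the 2 libraries bearing mesenchymal markers the sgZ1 value passed (-0.29, adjusted p = 0.00978).

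SAT1, the catabolic gene of the 9 that could be tested, did not pass. It encodes spermidine/spermine acetyltransferase, which marks polyamines for oxidation or export (ENSG00000130066.17, chromosome X, 23783173 to 23786226, plus strand). Its levels were 122, 151 and 132 CPM in sgZ1 libraries and 122, 119 and 108 CPM in sgZ3 libraries, against 117, 119.8 and 105 CPM in sgC libraries. The ranges of sgZ3 and sgC overlapped almost wholly, and sgZ1 lay slightly higher. The log2 fold change was 0.24 with sgZ1 (95% interval 0.02 to 0.47, adjusted p = 0.0961) and 0.03 with sgZ3 (-0.19 to 0.25, adjusted p = 0.839), and over both guides 0.14 (-0.06 to 0.33, adjusted p = 0.245). PAOX encodes the peroxisomal oxidase that acts on acetylated polyamines (ENSG00000148832.16, chromosome 10, 133379234 to 133391694, plus strand). It had 5 to 10 counts per library (0.254 to 0.536 CPM, 72 counts in all), so it fell under the low-count filter and was not tested.

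**Figure D2:**
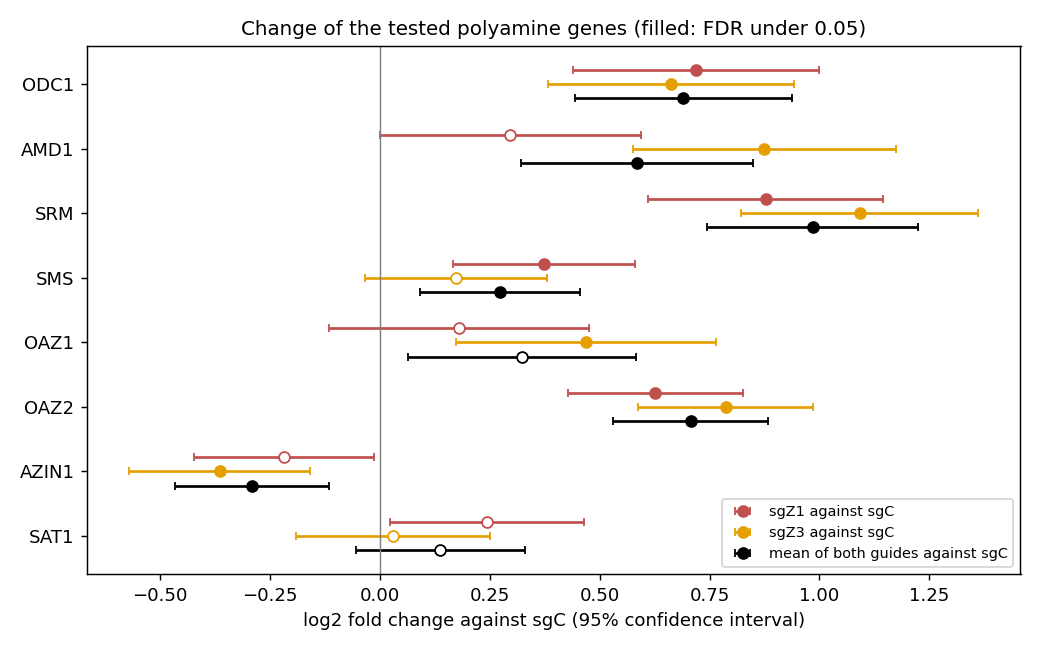
Log2 fold change of the 8 tested polyamine genes (horizontal axis) with 95% intervals for sgZ1, sgZ3 and the mean of both guides, each against sgC. Filled points passed a false discovery rate under 0.05. SRM has the largest value over both guides (0.98), and AMD1 is filled with sgZ3 (0.87) and open with sgZ1 (0.30).

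The balance of enzyme and antizyme messages was read as a ratio of counts within each library, which does not depend on the scaling between libraries. The result differed with the antizyme. ODC1 had 1.46 to 1.71 counts per OAZ1 count in sgZ1 and 1.22 to 1.36 in sgZ3, against 1.04 to 1.15 in sgC. On the log2 scale the ratio averaged 0.68 ± 0.12 in sgZ1 and 0.35 ± 0.081 in sgZ3, against 0.15 ± 0.075 in sgC (SD, n = 3 each). The 3 groups did not overlap, and sgZ1 was the highest. ODC1 had 6.79 to 9.36 counts per OAZ2 count in sgZ1 and 6.42 to 7.49 in sgZ3, against 6.79 to 7.89 in sgC. On the log2 scale that ratio averaged 2.98 ± 0.23 in sgZ1 and 2.77 ± 0.12 in sgZ3, against 2.90 ± 0.12 in sgC, and the groups overlapped. SAT1 had 0.168 to 0.196 counts per ODC1 count in sgZ1 and 0.150 to 0.174 in sgZ3, against 0.243 to 0.252 in sgC, so the message for acetylation was lower relative to that for putrescine synthesis in all 6 ZNF692-guide libraries. SRM had 0.585 to 0.772 counts per SMS count in sgZ1 and 0.711 to 1.00 in sgZ3, against 0.434 to 0.491 in sgC. The pairs SRM with SMS and ODC1 with OAZ2 were chosen after their values were seen. The ratios restate the levels above and were given no test, and the overlap of OAZ1 with LLfos-48D6.2 touches the ratio of ODC1 to OAZ1.

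**Figure D3:**
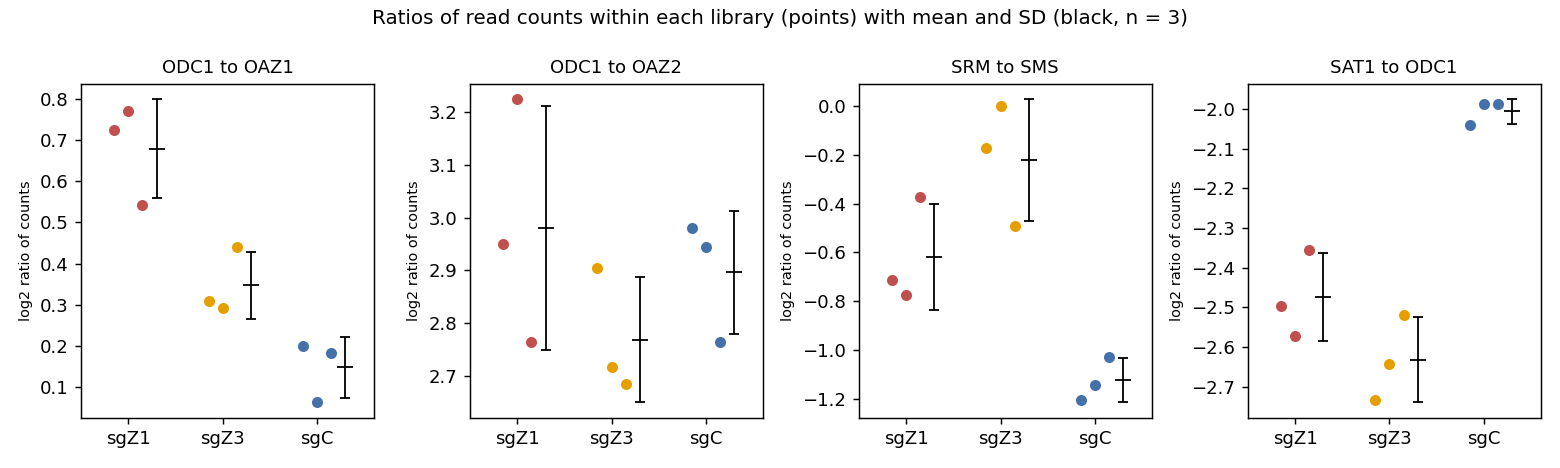
Log2 ratio of counts (vertical axes) of ODC1 to OAZ1, ODC1 to OAZ2, SRM to SMS and SAT1 to ODC1 in each library, sgZ1 and sgZ3 left of sgC; points are libraries and bars are means with SD over 3 libraries. ODC1 to OAZ1 and SRM to SMS lie above sgC in all 6 ZNF692-guide libraries, SAT1 to ODC1 lies below, and the groups overlap for ODC1 to OAZ2.

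Levels of different genes can be compared only per length, and RPKM (CPM per kilobase of the principal transcript) was used for this. In sgC the order was OAZ1 (361 RPKM), ODC1 (173), SAT1 (107), AZIN1 (93.5), SMS (87.9), AMD1 (59.9), SRM (58.4), OAZ2 (31.8) and PAOX (0.226). AZIN1 and SMS, and AMD1 and SRM, overlapped in that order. In sgZ3 the order was OAZ1 (499.5 RPKM), ODC1 (273), SRM (125), AMD1 (109.8), SAT1 (109), SMS (99.1), AZIN1 (72.7), OAZ2 (54.8) and PAOX (0.208), in which SRM overlapped AMD1 and AMD1 overlapped SAT1. In sgZ1 it was OAZ1 (409 RPKM), ODC1 (284), SAT1 (127), SMS (114), SRM (107), AZIN1 (80.4), AMD1 (73.6), OAZ2 (49.1) and PAOX (0.213), with overlaps of SAT1 with SMS, SMS with SRM and AZIN1 with AMD1. SRM and AMD1, near the bottom in sgC, stood just below ODC1 in sgZ3, and AZIN1 stood lower in the order with both guides. The order rests on the length chosen: with the union of all exons ODC1 was above OAZ1 in sgZ1 (254 and 137 RPKM), in sgZ3 (244 and 167) and in sgC (154 and 121). With those lengths SMS (84.3 RPKM) and SRM (83.1) came next in sgZ3, and AMD1 (53.7) stood level with AZIN1 (53.4).

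Steps that feed polyamine synthesis or use its products were examined through lists of neighbouring genes. Of 8 tested genes for supply of S-adenosylmethionine and salvage of the by-product methylthioadenosine, 5 were called higher and 0 lower over both guides (edgeR; 0 lower at an unadjusted p under 0.05, and 0 lower by DESeq2), with a median log2 fold change of 0.40, against a background of 18.6% of all tested genes higher and 14.6% lower. Of the 5, ADI1 lost its call without sgC replicate 1, 2 or 3 (adjusted p up to 0.101) and with library totals (0.0529), and ENOPH1 without sgC replicate 1 (0.0531). With sgZ1 alone neither ADI1 (0.12, adjusted p = 0.486) nor ENOPH1 (0.32, adjusted p = 0.0573) was called. MRI1, also among the 5, was above 2 CPM only in sgZ1 libraries, through which it passed the low-count filter. The group in which it is high thus decided that it was tested, so MRI1 adds no weight to the count of 5 or to the median. Its call was lost without any single sgC library (adjusted p up to 0.0972), without sgZ3 replicate 3 (0.0756) or without the 2 libraries bearing mesenchymal markers (0.0505). MAT2A, the main S-adenosylmethionine synthetase outside the liver, was the member called with each guide. It had 206, 194 and 201 CPM in sgZ1 libraries and 219, 209 and 211 CPM in sgZ3 libraries, against 125, 129 and 145 CPM in sgC libraries. That is a log2 fold change of 0.63 over both guides (SE 0.075, adjusted p = 0.000222). Every ZNF692-guide library was above every sgC library, as for 11.9% of all tested genes. MTAP, which starts the salvage by cleaving methylthioadenosine, was named after its values were seen: it had 30.8, 25.4 and 30.8 CPM in sgZ1 libraries and 15.4, 15.1 and 13.9 CPM in sgZ3 libraries, against 13.6, 12.4 and 13.9 CPM in sgC libraries. It rose with sgZ1 (1.12, adjusted p = 2.11e-05), and its sgZ3 value was 0.15 (adjusted p = 0.32).

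Spermidine is also the donor for hypusine, the modified amino acid of translation factor eIF5A. Of the 3 tested hypusine genes, 2 were called higher over both guides and with each guide, DOHH and EIF5A, and the median over both guides was 0.52. Of all tested genes, 18.6% were called higher over both guides and 6.65% with each guide. DHPS, the untested gene of this list, was named after its values were seen. Its row had means of 0 CPM in sgZ1, 0.018 CPM in sgZ3 and 0 CPM in sgC, so the list was not fully measured. Why that row was almost empty was not tested. DOHH, the hydroxylase that completes hypusine, had 28.7, 27.5 and 33.4 CPM in sgZ1 libraries and 27.2, 27.5 and 28.1 CPM in sgZ3 libraries, against 16.5, 15.1 and 16.5 CPM in sgC libraries (log2 fold change 0.84, SE 0.093, adjusted p = 0.00019). EIF5A, the carrier of hypusine, had 1522, 1853 and 1634 CPM in sgZ1 libraries and 2201, 2008 and 1732 CPM in sgZ3 libraries, against 1243, 1376 and 1188 CPM in sgC libraries (0.52, SE 0.095, adjusted p = 0.00217). For both genes every ZNF692-guide library was above every sgC library, as for 11.9% of all tested genes. Counts of EIF5A are uncertain to the extent that near-identical copies of it exist in the genome. Its sgZ1 call was lost without sgZ1 replicate 2 (adjusted p = 0.0528), sgC replicate 1 (0.0809) or sgC replicate 3 (0.0813).

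The remaining polyamine genes moved less uniformly. Of 7 other polyamine genes tested, 0 were called higher or lower over both guides (edgeR; 0 at an unadjusted p under 0.05, and 0 by DESeq2), with a median log2 fold change of 0.06. Without the 2 libraries bearing mesenchymal markers, 1 was called higher over both guides. SMOX, the oxidase that turns spermine back into spermidine, was named after its values were seen and went in opposite directions: 16.7, 15.7 and 20.5 CPM in sgZ1 libraries and 7.51, 8.84 and 7.66 CPM in sgZ3 libraries, against 13.6, 12.6 and 12.2 CPM in sgC libraries. Its log2 fold change was 0.46 with sgZ1 (adjusted p = 0.021) and -0.68 with sgZ3 (adjusted p = 0.00322), and the sgZ1 call was lost without sgZ1 replicate 3 (0.0774) or any single sgC library (0.0541 to 0.0872). Of 6 tested transport genes, 1 was called higher over both guides, SLC12A8, and 0 lower, against 18.6% and 14.6% of all tested genes (edgeR; 2 higher and 0 lower at an unadjusted p under 0.05, and 2 higher and 0 lower by DESeq2).

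**Figure D4:**
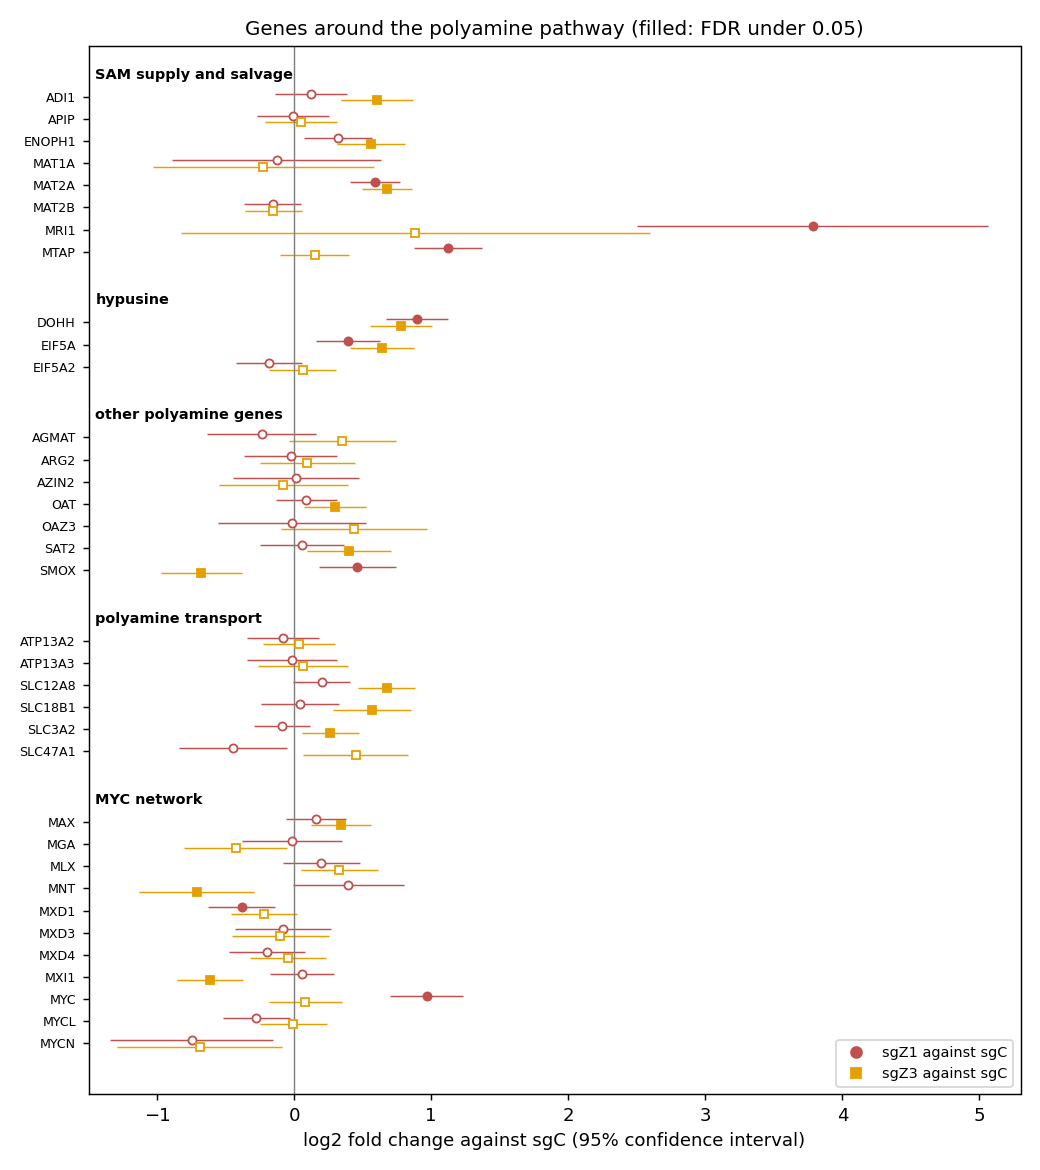
Log2 fold changes, with intervals, of the tested genes (rows) of each neighbouring list for sgZ1 and for sgZ3, each against sgC. Points are filled where the false discovery rate was under 0.05. The polyamine genes and the values over both guides are not drawn. Medians over both guides were 0.45 for the polyamine genes, 0.52 for hypusine and 0.40 for S-adenosylmethionine supply and salvage. They were 0.06 for other polyamine genes and for transport and -0.14 for the MYC network.

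MYC, the transcription factor for which ODC1 is a known target, was higher in sgZ1 libraries and close to the sgC level in sgZ3 libraries. It had 211, 170.3 and 236 CPM in sgZ1 libraries and 105.5, 103.5 and 125 CPM in sgZ3 libraries, against 102, 102 and 111 CPM in sgC libraries. MYC rose with sgZ1 (0.97, SE 0.12, adjusted p = 0.000138), and the sgZ3 value was 0.08 (SE 0.12, adjusted p = 0.617). Between the guides, sgZ3 minus sgZ1, MYC differed by -0.88 (adjusted p = 0.000273), whereas ODC1 had -0.06 (adjusted p = 0.766) and SRM had 0.21 (adjusted p = 0.203). In sgZ3, then, ODC1 and SRM were called higher and MYC mRNA was not, and MYC protein was not measured. Of 11 tested genes of the MYC network, 2 were called higher and 3 lower over both guides, where 18.6% of all tested genes were called higher, a share near that of the list, and 14.6% lower. Of these 5, MYC (0.53 over both guides, adjusted p = 0.004) kept its call in 17 of 17 alternatives. MAX kept it in 7 of 17, MXD1 in 11 of 17 and MXI1 in 10 of 17. MYCN (-0.72, adjusted p = 0.0329), named after its values were seen, kept it in 12 of 17. MXI1, a repressor that competes for MAX, was named after its values were seen and fell by 0.61 on the log2 scale with sgZ3 (adjusted p = 0.00188). Its sgZ1 value was 0.06 (adjusted p = 0.743).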

How the data were processed

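Poly(A) RNA from DLD1 cells was measured in 9 libraries, 3 each for sgZ1, sgZ3 and sgC, grouped by sample title. The description of sgC replicate 3 names the ribosomal RNA table, but by title and molecule it is a poly(A) library, and it was used as such. The authors deposited whole-number counts per gene and library, without normalization. Per the submitters' processing notes, HTSeq, DESeq2, SAMtools 1.9 and STAR 2.5.2b were used, in no stated order, with the build GRCh38. For the annotation release and the strand setting of counting, the sources used here give nothing, so reads of a gene and its antisense partner may not be separated. The ribosomal RNA table holds no polyamine gene and was not used.

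Analysis used edgeR 4.0.16 (with limma 3.58.1, in R 4.3.3). The filterByExpr filter (minimum count 10) kept 14732 of 47021 rows. After TMM scaling, a robust quasi-likelihood model with a term for group alone, fitted to the 9 libraries together, gave log2 fold changes, standard errors, 95% intervals and p-values adjusted by Benjamini-Hochberg over all tested genes, called under 0.05. The biological coefficient of variation common to all genes was 12.7%. Totals of 16044224 to 24535642 counts set the precision, and counting error covers only part of the error. Coordinates and lengths came from GENCODE 29 (GRCh38), in which 99.2% of tested gene IDs were found, and promoter windows from RefSeq (GRCh38.p14). Of 11 rows named after a polyamine gene, 10 pseudogene rows held 15 counts in all, and ODC1-DT, a divergent transcript, held 169.

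The polyamine genes, the neighbouring lists, the markers and the naming rule were chosen with earlier results of these data known. The rule names all 9 polyamine genes, the neighbours called the same way with each guide, and MYC. Other names were added after values were seen and are marked as such. Deviations of same-numbered libraries from their group means had correlations of -0.129 to 0.341, over 0.1 in 4 of 9 pairs. Replicate numbers were not taken as pairs, since this needs every pair over 0.1. Alternatives were other scalings (RLE, upper-quartile, library totals alone), DESeq2 1.42.0, other filters (none, or a mean of 10 CPM or more), fits of just the compared groups, a replicate block, leaving out each library, and 7 libraries, without sgZ1 replicate 2 and sgZ3 replicate 3.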

Additional observations from a re-analysis of the deposited data

Results flagged for a closer look

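Between the guides, sgZ3 minus sgZ1, a test of the difference itself (edgeR quasi-likelihood test, adjusted over all tested genes) picked out AMD1 among the polyamine genes, with a log2 difference of 0.58 (adjusted p = 0.00825). Each of the 3 sgZ3 libraries was above each of the 3 sgZ1 libraries, as for 17.2% of all tested genes. For SMS and SAT1 each sgZ3 library was instead below each sgZ1 library, and neither gene was called (adjusted p = 0.132 and 0.131). Of all tested genes, 12.8% were called higher and 15.8% lower in this comparison.

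Neighbouring genes whose levels were higher with sgZ3 than with sgZ1 were ADI1 of methylthioadenosine salvage (0.48, adjusted p = 0.0113), AGMAT (0.59, adjusted p = 0.0296), and the transport genes SLC12A8 (0.47, adjusted p = 0.0031), SLC18B1 (0.53, adjusted p = 0.00992), SLC3A2 (0.35, adjusted p = 0.0159) and SLC47A1 (0.90, adjusted p = 0.00311). These calls were lost in 6 of 18 alternatives for AGMAT (adjusted p up to 0.132), 4 for SLC3A2 (up to 0.0767), 3 for ADI1 (up to 0.0614) and 2 for SLC18B1 (up to 0.0549). Lower with sgZ3 were the salvage gene MTAP (-0.97, adjusted p = 6.89e-05), the spermine oxidase gene SMOX (-1.14, adjusted p = 7.35e-05), MYC (-0.88, adjusted p = 0.000273), and the MAX partners MNT (-1.11, adjusted p = 0.00124) and MXI1 (-0.67, adjusted p = 0.000882). The salvage gene MRI1 had a log2 difference of -2.90, with means of 0.429 CPM in sgZ3 and 3.39 CPM in sgZ1. It passed the low-count filter only through the sgZ1 libraries, so the group in which it is high decided that it was tested, and the difference is given as a description.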

How the results depend on the processing

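Under every alternative run, ODC1 (0.59 to 0.74), SRM (0.88 to 1.05) and OAZ2 (0.61 to 0.74) stayed called higher over both guides and with each guide, and AMD1 (0.44 to 0.66) over both guides and with sgZ3. SMS and AZIN1 did not hold so widely: SMS over both guides was also lost with library totals (adjusted p = 0.0947), as was OAZ1 with sgZ3 (0.0633). OAZ1 over both guides passed with DESeq2 (0.0368), without a low-count filter (0.00412) and with the replicate block (0.0179). Replicate numbers were not taken as pairs (8 of 18 best matches were with the own number). Library totals shifted the median of all genes by -0.10 (log2) over both guides, -0.155 with sgZ3 and -0.11 between guides.

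Signs that turned were those of small values: SAT1 with sgZ3 (-0.039 upper-quartile, -0.13 library totals, -0.014 at 10 CPM, -0.026 to 0.081 leaving out single libraries, below 0 without sgZ1 replicate 2, sgZ3 replicate 1 or sgC replicate 3, at -0.010, -0.0025 and -0.026), MYC with sgZ3 (-0.072 library totals, -0.0082 to 0.135 leaving out single libraries, below 0 without sgZ3 replicate 3, -0.056 in 7 libraries), MTAP with sgZ3 (-0.0055 library totals), MAT2A between guides (-0.024 library totals) and ODC1 between guides (-0.14 to 0.056 leaving out single libraries, above 0 without sgZ1 replicate 2, and at 0.046 without sgZ3 replicate 3, 0.15 in 7 libraries).

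Counts of polyamine genes called lower were 1 with sgZ1 and 2 between guides with library totals, and 1 with sgZ1 in 7 libraries, where 3 were higher between guides. Over all genes, library totals gave 3265 lower over both guides, 1738 higher and 4135 lower with sgZ3 and 1148 higher between guides. A mean of 10 CPM gave 1437 higher with sgZ1 and 1400 lower between guides. The 7 libraries gave 3967 lower over both guides, 2605 lower with sgZ1, 4676 lower with sgZ3, and 3468 higher and 4464 lower between guides. Leaving out single libraries gave 4 to 6 polyamine genes higher over both guides, 3 to 5 with sgZ1, 4 to 5 with sgZ3 and 1 to 3 between guides, and 0 to 1, 0, 0 to 1 and 0 lower. Over all genes it gave 1360 to 3303, 1442 to 2824, 1774 to 3393 and 1035 to 2871 higher, and 841 to 3034, 687 to 2031, 1222 to 3403 and 1466 to 3282 lower. The cause was not tested.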

Other observations

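The genes whose levels were most like those of a polyamine gene over the 9 libraries were looked up among 9250 tested genes of at least 10 CPM. Likeness is Pearson's r of log2 CPM, a description only, since the libraries fall into 3 groups by guide and a shared difference between groups alone gives a high r. SRM was most like RAB1B (r = 0.995), a small GTPase of transport out of the endoplasmic reticulum, OAZ2 (r = 0.994) and METTL1 (r = 0.991), a tRNA methyltransferase, so that of all these genes an antizyme gene was next to closest to spermidine synthase. ODC1 was most like TMEM99 (r = 0.987), MRPS23 (r = 0.986), a mitochondrial ribosomal protein gene, and CDCA4 (r = 0.986). AMD1 was most like PPP4R1 (r = 0.985), TFRC (r = 0.983), the transferrin receptor, and CORO1C (r = 0.979). SAT1 was most like H2AW (r = 0.955), FANCE (r = 0.953) and CDKN1A (r = 0.933), the p21 cell-cycle inhibitor.

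Among genes outside the naming rule, whose values were seen first, ADI1 (0.61, adjusted p = 0.00329) and ENOPH1 (0.56, adjusted p = 0.00355), both of methylthioadenosine salvage were called higher with sgZ3 (edgeR, against sgC). SLC12A8 (0.68, adjusted p = 0.000561), SLC18B1, a vesicular polyamine transporter gene (0.57, adjusted p = 0.00627), and SLC3A2, an amino acid transporter subunit gene (0.26, adjusted p = 0.0467), were called higher with sgZ3, but the SLC3A2 call held in 7 of 18 alternatives (adjusted p up to 0.339, and 0.116 with upper-quartile factors). MAX (0.35, adjusted p = 0.0197) was called higher and MNT (-0.71, adjusted p = 0.0145) lower with sgZ3, and MXD1 (-0.38, adjusted p = 0.0252) lower with sgZ1. The calls held in 12 of 18 alternatives for MAX (adjusted p up to 0.136), and in 15 of 18 each for MNT (up to 0.0673) and MXD1 (up to 0.112).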
